A study of Mus musculus with 22 samples.

Results

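The protein arginine methyltransferases were followed through 22 RNA-seq libraries of mouse embryonic stem cells (ESCs) as 8 genes, matched by name in the deposited expression table: *Prmt1*, *Prmt2*, *Prmt3*, *Carm1*, *Prmt5*, *Prmt6*, *Prmt7* and *Wdr77*. *Wdr77* encodes the partner protein that PRMT5 needs for activity. The table held 18487 genes, of which 17275 passed a filter on low values and were tested, and all 8 members were among the tested genes. Membership was set by the gene name.

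All libraries came from the E14 ESC line, and the 11 groups of 2 libraries were a group labelled NC and 10 groups each given 1 compound. The study's methods describe ESCs grown in serum with LIF, the labels give neither dose nor time of treatment, and what NC stands for was not spelled out. As background from general knowledge, MS023 inhibits type I arginine methyltransferases directly, and DZNep blocks the breakdown of S-adenosylhomocysteine, a product that holds back methyltransferases in general. Bromosporine binds bromodomains, Valproate inhibits histone deacetylases, CPTH2 and Garcinol inhibit histone acetyltransferases, Chaetocin and UNC0379 are used against lysine methyltransferases, and IOX1 inhibits oxygenases such as the lysine demethylases. OICR is given as labelled. The labels do not say whether the 2 libraries of a group came from separate cultures, so all p-values measure only the spread between these libraries, which may be technical. All 10 comparisons share the same 2 NC libraries.

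Arginine methyltransferases move methyl groups from S-adenosylmethionine onto arginine side chains of histones, RNA-binding proteins and splicing factors. Type I enzymes (PRMT1, PRMT2, PRMT3, CARM1, PRMT6) leave asymmetric dimethylarginine, type II enzymes (PRMT5) leave symmetric dimethylarginine, and PRMT7, of type III, adds a single methyl group. In ESCs PRMT1 makes most of the asymmetric mark, CARM1 methylates histone H3 and is tied to pluripotency genes, and PRMT5 is needed for the cells to be maintained. The inhibitor MS023 acts on the enzymes, so the measurements here are of the transcripts and not of enzyme activity or of methylated arginine.

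Each value is a read count that the authors normalized toward a common distribution, then rounded. Library totals therefore lay between 38403767 and 38419709, and sequencing depth is unknown. The median was 409 in NC replicate 1, where it was taken, and the largest value of the table was 221616. Between 1065 and 1707 genes stood at 0 in a library. Markers of ESCs were high in every library: *Pou5f1* ranged from 25663 to 39262, *Sox2* from 10935 to 18762, and *Nanog* from 31970 to 123367. The summed level of 10 ESC markers was 178012 to 284402, against 159 to 508 for primitive endoderm (3 of 5 markers in the table), 748 to 1268 for mesoderm, 311 to 834 for neural, 46 to 1243 for fibroblast and 2746 to 5704 for trophoblast markers, the last being nearly all *Tfap2c*, while *Cdx2* was at 2 to 24 and *Hand1* at 0 to 24. The sums of DZNep and MS023 libraries stood apart for some lists. With DZNep the ESC sum was 275811 and 284402 and the fibroblast sum 1223 and 1243, above the NC libraries (214081 and 213620 for ESCs, 546 and 644 for fibroblasts). In NC 1 gene made up most of the fibroblast sum (*Postn*, 474 and 559), the mesoderm sum (*Gsc*, 1007 and 856) and the neural sum (*Sox1*, 742 and 514). These sums are therefore not levels of a whole lineage. With MS023 the ESC sum was 194872 and 178012 and the neural sum 311 and 348, below the NC libraries (834 and 657 for neural). The part of these shifts in the values of the members was not tested. In bulk libraries, fewer cells of a type and less RNA per cell cannot be told apart.

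The promoters of 3 genes are printed because these genes carry the patterns that follow. *Prmt1* and *Prmt5* had the highest correlation of any pair of members over all 11 groups, and *Prmt8*, a further type I gene outside the 8, was the relative with the largest fall. Promoters are RefSeq windows of 300 bases on GRCm38.p6 (mm10), from 250 bases before to 50 after the start of the gene. Of the 8 members, 7 matched a promoter by symbol, and *Carm1* is named only. Capitals mark matches, on either strand, to 7 motifs: the GC box spelled GGGCGG, the CCAAT box, the E-box spelled CACGTG, the ETS core spelled CCGGAAG, the YY1 core spelled ATGGCG, the NRF1 core spelled GCGCATG and the TATA box spelled TATAAA. No matches overlapped in the windows printed. The windows are at chr7:44986371-44986670 (minus strand) for *Prmt1*, chr14:54517421-54517720 (minus strand) for *Prmt5* and chr6:127769106-127769405 (minus strand) for *Prmt8*.
Prmt1 promoter: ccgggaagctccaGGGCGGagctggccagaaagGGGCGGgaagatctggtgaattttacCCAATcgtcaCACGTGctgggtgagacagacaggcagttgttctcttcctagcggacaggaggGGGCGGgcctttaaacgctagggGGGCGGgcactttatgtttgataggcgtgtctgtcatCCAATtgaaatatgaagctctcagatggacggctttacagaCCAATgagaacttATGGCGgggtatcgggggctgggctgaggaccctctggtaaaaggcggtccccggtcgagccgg
Prmt5 promoter: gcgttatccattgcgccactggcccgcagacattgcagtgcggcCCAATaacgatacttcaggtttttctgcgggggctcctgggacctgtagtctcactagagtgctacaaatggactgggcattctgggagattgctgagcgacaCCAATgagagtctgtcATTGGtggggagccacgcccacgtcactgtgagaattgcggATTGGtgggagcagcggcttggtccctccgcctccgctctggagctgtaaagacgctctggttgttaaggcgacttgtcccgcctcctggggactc
Prmt8 promoter: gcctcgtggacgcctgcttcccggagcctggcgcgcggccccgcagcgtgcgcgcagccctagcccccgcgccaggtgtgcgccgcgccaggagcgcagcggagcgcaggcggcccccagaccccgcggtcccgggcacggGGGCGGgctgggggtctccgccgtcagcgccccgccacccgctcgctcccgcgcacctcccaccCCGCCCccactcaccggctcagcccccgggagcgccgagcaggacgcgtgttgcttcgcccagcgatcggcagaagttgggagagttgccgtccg
The *Prmt1* window held 4 GC boxes, 3 CCAAT boxes, 1 E-box and 1 YY1 core, and the *Prmt5* window held 4 CCAAT boxes and no GC box. At least 3 CCAAT boxes stood in 3.37% of the 32851 promoters in the table, and at least 1 in 37.4%. A GC box stood in 35.7%, an E-box in 7.15% and a YY1 core in 8.93% of all promoters. The *Prmt1* and *Prmt5* windows had 17 and 16 CpG dinucleotides, near each other, and *Prmt8* had 44, against a median of 7 over all promoters. These are matches of letters, and binding was not measured.

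To set the members against each other, NC values were divided by the length of the longest annotated transcript. The normalized values are not plain counts, since different genes can hold the same value in a library (*Pabpc1* and *Rps2* both 221616 in NC). The order of genes is therefore approximate. *Prmt1*, on chromosome 7 (44975989 to 44986568, mm10, GENCODE), stood highest at 5227 ± 944 per kb (SD, n = 2). *Prmt5* on chromosome 14 (54507187 to 54517525) was at 2210 ± 392 per kb, *Prmt7* on chromosome 8 (106210936 to 106252794) at 2112 ± 14.1, *Wdr77* on chromosome 3 (105959369 to 105970037) at 1994 ± 313 and *Carm1* on chromosome 9 (21546894 to 21592623) at 1833 ± 53.1. Those 4 genes lay within a narrow band, and the *Prmt5* and *Wdr77* libraries overlapped with each other. *Prmt6* on chromosome 3 (110246109 to 110250998) was at 540 ± 145 per kb, *Prmt3* on chromosome 7 (49778346 to 49858265) at 447 ± 36.4 and *Prmt2* on chromosome 10 (76207222 to 76237865) at only 59.3 ± 3.03. With the median transcript length in place of the longest, *Prmt1* remained highest (15140 per kb) and *Prmt2* lowest (63.3), but *Prmt3* (2188) then stood above *Prmt6* (541) and *Wdr77* (7804) above *Prmt5* (7332), so the order of the middle genes depends on the transcript taken.

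**Figure D1:**
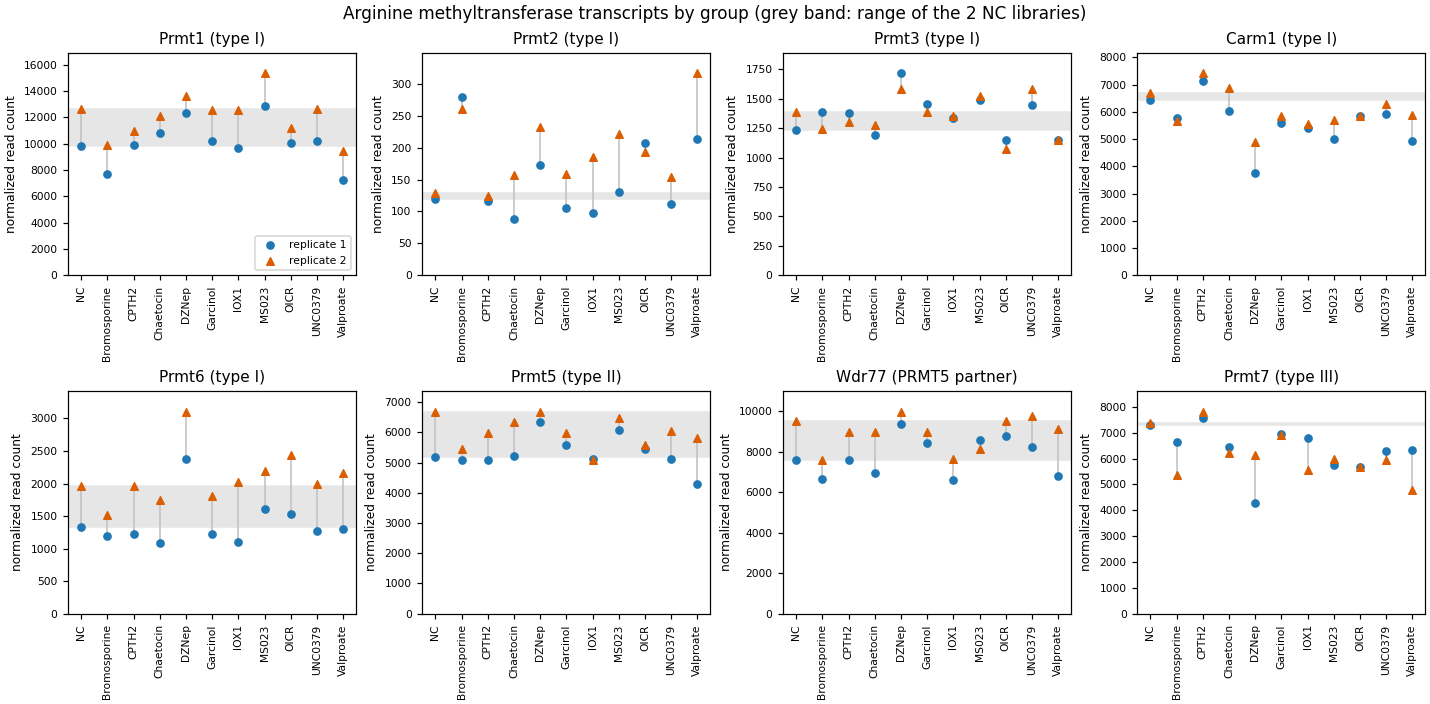
Normalized read counts of the 8 members in each of 22 libraries, by group, with circles for replicate 1 and triangles for replicate 2; the grey band spans the 2 NC libraries and each axis starts at 0. *Prmt1* was highest with MS023 (12863 and 15350), *Carm1* and *Prmt7* had their lowest group mean with DZNep, and *Prmt2* was highest with Bromosporine and Valproate.

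Across the 10 compounds no member was called in the main fit, which had no term (block) for the replicate number. A call needed an adjusted p under 0.05 (limma, Benjamini-Hochberg) and a change over 2-fold. The count was 0 of 80 member and compound pairs, against 2.15% of all pairs of a tested gene and a compound (3719 of 172750). The share of tested genes called was 11.4% with DZNep, 5.28% with Valproate, 3.34% with Bromosporine, 0.973% with MS023, 0.388% with OICR, 0.116% with IOX1, 0.0174% with Chaetocin, 0.00579% with CPTH2 and with Garcinol, and 0% with UNC0379. Without an adjustment for multiple tests, 12 of the 80 pairs had p under 0.05, where 13.2% of all pairs did. The F-test over all 11 groups passed for *Prmt3* (adjusted p = 0.00785, limma, Benjamini-Hochberg) and *Carm1* (adjusted p = 0.0177), which is 2 of 8 members against 29.7% of tested genes. From the lowest to the highest group mean the levels spanned 1.29-fold for *Prmt5*, 1.36-fold for *Wdr77*, 1.48-fold for both *Prmt3* and *Prmt7*, 1.68-fold for *Carm1*, 1.70-fold for *Prmt1*, 2.03-fold for *Prmt6* and 2.25-fold for *Prmt2*. Both libraries of a compound lay outside both NC libraries in 34 of 80 pairs (42.5%), close to the 40.7% of all gene and compound pairs.

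**Figure D2:**
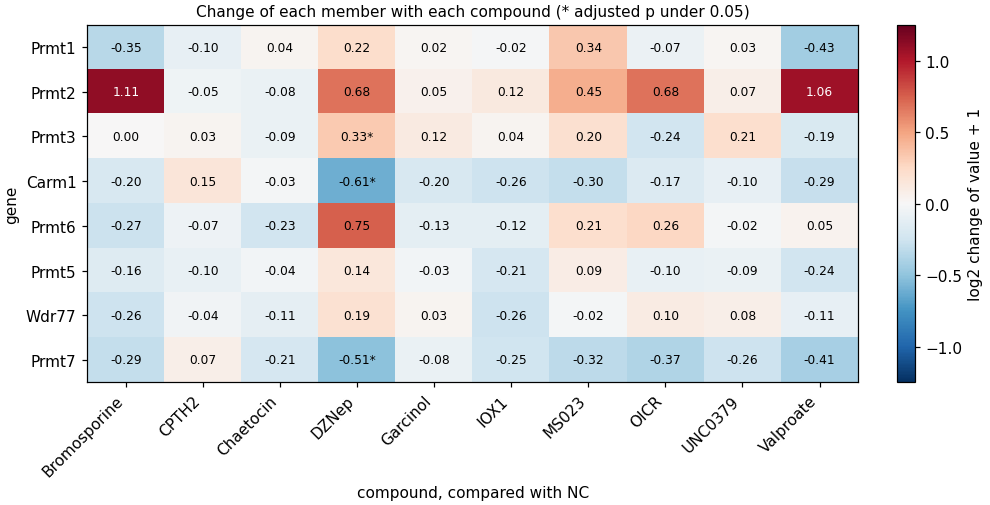
Log2 change of each member (rows) with each of 10 compounds (columns) compared with NC, on the scale of log2(value + 1); red is higher, blue is lower and an asterisk marks an adjusted p under 0.05. The 3 asterisks all stand in the DZNep column, and the darkest cells are *Prmt2* with Bromosporine (1.11) and Valproate (1.06), which carry none.

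With MS023, the compound aimed at the type I enzymes, none of the 8 members passed the adjusted threshold, called or not, where 0.973% of tested genes were called and 2.21% passed on adjusted p alone (limma, Benjamini-Hochberg). Only *Carm1* had an unadjusted p under 0.05. *Prmt1*, which makes the bulk of asymmetric dimethylarginine, stood at 9790 and 12656 in the NC libraries and reached 12863 and 15350 with MS023. Both MS023 libraries lay above both NC libraries, and no other compound placed both libraries there. The change was 0.34 on the log2 scale (SE 0.19, 95% interval -0.08 to 0.75, adjusted p = 0.465, limma with Benjamini-Hochberg), and it was 0.39 between the libraries numbered 1 and 0.28 between those numbered 2. The gap between the NC libraries was of the same size as the change. However, replicate 2 stood above replicate 1 in all 11 groups for *Prmt1*, as it did for 12.3% of tested genes. The main fit counts this gap as spread. With a replicate block *Prmt1* passed the adjusted threshold with MS023 at the same change (SE 0.08, adjusted p = 0.0208, limma), still under 2-fold.

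The other type I genes under MS023 did not move as a group. *Prmt3*, which methylates a ribosomal protein, went from 1237 and 1388 to 1492 and 1519 (log2 change 0.20, SE 0.09, adjusted p = 0.344, limma). *Carm1*, the coactivator that methylates histone H3, was lower in both libraries, at 5002 and 5695 against 6438 and 6707 (-0.30, SE 0.12, adjusted p = 0.264). *Prmt6*, which methylates histone H3 at a repressive position, was at 1602 and 2197 against 1338 and 1965, so the groups overlapped (0.21, SE 0.40, adjusted p = 0.864). *Prmt2*, an enzyme of weak activity, was at 131 and 222 against 120 and 129 (0.45, SE 0.37, adjusted p = 0.636). Thus *Prmt1*, *Prmt2* and *Prmt3* lay above both NC libraries, *Carm1* below, and *Prmt6* overlapped with them, where 21.8% of tested genes lay above both NC libraries with MS023 and 23.6% below.

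The members that MS023 does not target gave the following values. *Prmt5* was at 6097 and 6471 with MS023 and at 5200 and 6692 in NC, with the MS023 libraries inside the NC range (0.09, 95% interval -0.24 to 0.42, adjusted p = 0.842, limma). *Wdr77* was at 8581 and 8147 against 7598 and 9493, also inside the NC range (-0.02, 95% interval -0.39 to 0.34, adjusted p = 0.988). *Prmt7* was at 5734 and 5996 against 7299 and 7368, below both NC libraries (-0.32, SE 0.17, adjusted p = 0.394). The 95% intervals of 6 members stayed within a 2-fold change either way, and those of *Prmt2* (upper bound 1.24) and *Prmt6* (upper bound 1.08) reached past 2-fold.

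**Figure D3:**
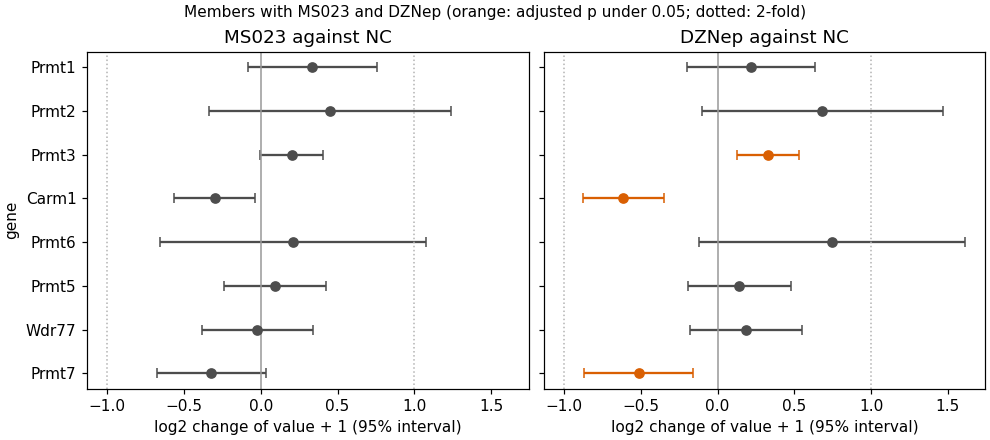
Log2 change of each member with MS023 (left) and DZNep (right) compared with NC; points are limma estimates, bars are 95% intervals, dotted lines mark 2-fold and orange marks an adjusted p under 0.05. No member is orange with MS023, and *Prmt3* (0.33), *Carm1* (-0.61) and *Prmt7* (-0.51) are orange with DZNep.

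DZNep was the compound with the most members past the adjusted threshold. Of the 8 members 3 passed on adjusted p, against 23.6% of tested genes, and 0 of 8 were called with the 2-fold limit, against 11.4%. *Carm1* fell from 6438 and 6707 in NC to 3757 and 4912 (log2 change -0.61, SE 0.12, adjusted p = 0.00287, limma with Benjamini-Hochberg). Both DZNep libraries lay below every other library of the series for *Carm1*. The fall was -0.78 between the libraries numbered 1 and -0.45 between those numbered 2, and it kept an adjusted p under 0.05 when any 1 of the 4 libraries was left out (-0.81 to -0.42). With only the DZNep and NC libraries fitted, adjusted p was 0.158.

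Exons of *Carm1* overlap on the opposite strand with *Yipf2*, and 21.3% of the 31-base words of *Carm1* transcripts also occur in other annotated genes. *Yipf2* was at 233 and 221 in NC and rose to 745 and 633 with DZNep (1.59, SE 0.15, adjusted p = 1.55e-05, limma), and to 379 and 334 with MS023 (0.65, SE 0.15, adjusted p = 0.0437). Whether the counting used strand is not stated in the sources used here, so reads from the shared stretch cannot be told apart, and their part in the *Carm1* value was not tested.

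*Prmt7* fell with DZNep from 7299 and 7368 to 4290 and 6153 (-0.51, SE 0.17, adjusted p = 0.0376, limma). The DZNep libraries were far apart, at -0.77 and -0.26 within replicate numbers, and the value rested on replicate 1: without it the change was -0.25 (adjusted p = 0.320), and leaving out either NC library also took the adjusted p past the threshold (0.142 and 0.116). Dividing the values by a median-ratio factor gave an adjusted p of 0.0613, taking the other 10 groups as reference 0.0752, and fitting only the DZNep and NC libraries 0.256. *Smpd3*, which overlaps *Prmt7* on the opposite strand, was near 0 in NC (5 and 8) and at 48 and 48 with DZNep.

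*Prmt3* rose with DZNep from 1237 and 1388 to 1717 and 1579 (0.33, SE 0.09, adjusted p = 0.0216, limma), with both DZNep libraries above both NC libraries. This was the smallest of the 3 changes, and leaving out DZNep replicate 1 (adjusted p = 0.116) or NC replicate 1 (0.197) took it past the threshold, as did a fit of only the DZNep and NC libraries (0.237). UNC0379 libraries reached 1445 and 1584, overlapping with DZNep, and the lowest *Prmt3* values were with OICR (1148 and 1075, -0.24, SE 0.09, adjusted p = 0.356) and Valproate (1150 and 1148).

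*Prmt6* had its highest values with DZNep, at 2384 and 3107 against 1338 and 1965 in NC, and DZNep was the 1 compound with both libraries above NC. The change of 0.75 did not pass (SE 0.40, 95% interval -0.12 to 1.61, adjusted p = 0.196, limma), although it was 0.83 and 0.66 within replicate numbers 1 and 2. *Prmt6* had the largest median gap of the members between the 2 libraries of a group, replicate 2 being higher in all 11 groups by a median of 0.65 on the log2 scale. The main fit counts this gap as spread. With a replicate block the DZNep change passed the adjusted threshold (SE 0.11, adjusted p = 2.44e-04, limma), still under 2-fold. Relative to *Carm1*, the log2 ratio of *Prmt6* went from -2.27 and -1.77 in NC to -0.66 in both DZNep libraries, while the other 9 compounds lay between -2.55 and -1.26. *C130013H08Rik*, on the opposite strand to *Prmt6*, had 44 and 55 in NC, compared with 81 and 67 under DZNep. Of the 31-base words of the longest *Prmt6* transcript, 31.5% occur in other annotated genes.

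The symmetric-methylation pair of *Prmt5* and *Wdr77* changed little with DZNep, although both had their highest group mean there. *Prmt5* was at 6333 and 6692, inside the NC range of 5200 to 6692 (0.14, 95% interval -0.19 to 0.48, adjusted p = 0.546, limma). *Wdr77* was at 9361 and 9979 against 7598 and 9493 (0.19, 95% interval -0.18 to 0.55, adjusted p = 0.458). The log2 ratio of *Prmt5* to *Wdr77* was -0.55 and -0.50 in NC and stayed between -0.73 (OICR) and -0.41 (MS023) in the group means. Exons of *Wdr77* overlap on the opposite strand with *Atp5f1*, at 14713 and 17988 in NC and 13113 and 19230 with DZNep. Of the 31-base words of the longest *Wdr77* transcript, 30.6% occur in other annotated genes. The part of shared reads in the *Wdr77* level and in this ratio was not tested. *Prmt1* with DZNep was at 12351 and 13591 (0.22, SE 0.19, adjusted p = 0.448), with its lower library inside the NC range.

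Set directly against each other in the main fit, DZNep and MS023 did not differ by a call for any of the 8 members. No member passed on adjusted p alone either, where 10.9% of tested genes were called and 22.9% passed on adjusted p. The nearest was *Carm1*, lower with DZNep by a log2 difference of -0.31 (SE 0.12, 95% interval -0.58 to -0.05, adjusted p = 0.0847, limma), with no overlap between 3757 and 4912 with DZNep and 5002 and 5695 with MS023. It was the 1 member with an unadjusted p under 0.05. *Prmt1* was nominally lower with DZNep (-0.12, 95% interval -0.53 to 0.30) and *Prmt5* nearly equal (0.05, 95% interval -0.28 to 0.39). The widest interval was that of *Prmt6* (0.54, 95% interval -0.33 to 1.40). With a replicate block *Prmt6* passed the adjusted threshold (95% interval 0.29 to 0.78, adjusted p = 0.00239, limma). So did *Carm1* (95% interval -0.51 to -0.12, adjusted p = 0.0157), and neither was called. The differences themselves take no value from the NC libraries, and their errors come from the spread in all 11 groups.

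Beyond these 2 compounds, *Prmt2* had the widest range of any member. It was at 120 and 129 in NC, at 280 and 261 with Bromosporine (1.11, SE 0.37, 95% interval 0.33 to 1.90, adjusted p = 0.10, limma) and at 214 and 317 with Valproate (1.06, SE 0.37, adjusted p = 0.0853). Both passed 2-fold and neither passed the adjusted threshold in the main fit, where Bromosporine called 3.34% of tested genes and Valproate 5.28%. With a replicate block both were called (adjusted p = 0.00942 with Bromosporine and 0.00807 with Valproate, limma). OICR (207 and 194), DZNep (173 and 232) and MS023 (131 and 222) also lay above both NC libraries, so *Prmt2* was above NC with 5 of 10 compounds, as 13.9% of tested genes were with at least 5. The lowest change was with Chaetocin (88 and 157, -0.08), whose libraries stood on either side of NC. *Prmt2* is the least abundant member, and *Mir678* lies within its exons on the same strand.

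*Prmt1* was lowest with Valproate, at 7223 and 9409 against 9790 and 12656 in NC (-0.43, SE 0.19, adjusted p = 0.190, limma). Both Valproate libraries lay below both NC libraries, and the change was alike within replicate numbers (-0.44 and -0.43). With a replicate block this change passed the adjusted threshold (SE 0.08, adjusted p = 0.00215, limma), still under 2-fold. Bromosporine gave 7711 and 9886 (-0.35), with 1 library just inside the NC range. *Prmt5* was also lowest with Valproate, at 4298 and 5811 (-0.24, SE 0.16), and *Wdr77* was lowest with IOX1, at 6606 and 7651 (-0.26, SE 0.17), each with 1 library inside the NC range. With IOX1 both *Prmt5* libraries (5121 and 5076) lay below both NC libraries. *Prmt6* was lowest with Bromosporine (1196 and 1511, -0.27, SE 0.40), and its libraries overlapped with NC.

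*Prmt7*, the monomethylating enzyme, was below both NC libraries with 9 of 10 compounds, as 0.828% of tested genes were with at least 9. The exception was CPTH2, at 7587 and 7821, above both (0.07, SE 0.17, adjusted p = 1.00, limma). The NC libraries of *Prmt7* were close together (7299 and 7368). Garcinol gave 6970 and 6922, Chaetocin 6438 and 6228, UNC0379 6305 and 5938, and OICR 5670 in both libraries. Bromosporine (6659 and 5380), IOX1 (6809 and 5562) and Valproate (6342 and 4794) had replicate 1 above replicate 2, whereas DZNep had it below. The F-test over the 11 groups did not pass for *Prmt7* (adjusted p = 0.164, limma, Benjamini-Hochberg).

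*Carm1* resembled *Prmt7* in this. It was below both NC libraries with 8 of 10 compounds (2.73% of tested genes were with at least 8), above with CPTH2 (7135 and 7425, 0.15, SE 0.12, adjusted p = 1.00, limma) and overlapping with Chaetocin (6043 and 6876). After DZNep, the lowest were MS023 (5002 and 5695) and Valproate (4936 and 5881). Garcinol (5580 and 5852), IOX1 (5408 and 5556), Bromosporine (5777 and 5662), OICR (5852 in both) and UNC0379 (5933 and 6305) lay between. All these comparisons rest on the same 2 NC libraries, and only the DZNep change passed the adjusted threshold in the main fit. With a replicate block the Valproate change also passed it (adjusted p = 0.0346, limma).

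Over the 11 group means of log2(value + 1), *Prmt1* and *Prmt5* had the highest r of the pairs (Pearson r 0.842, Spearman rho 0.855), and r was 0.790 without Valproate and Bromosporine, the groups farthest from the median of *Prmt1*. The order did not hold without these groups, since *Prmt2* and *Prmt6* then had r 0.876, in place of 0.292 with all 11. *Carm1* and *Prmt7* came next (r 0.834, rho 0.764), and r was 0.618 without DZNep and CPTH2. *Prmt6* and *Wdr77* had r 0.734, *Prmt5* and its partner *Wdr77* 0.673, and *Prmt2* and *Prmt7* -0.715. These values describe 28 pairs, with no test, and the points share libraries and their normalization. MS023 and DZNep were the highest groups for both *Prmt1* and *Prmt5*, yet among the lower groups for *Carm1* and *Prmt7*. The log2 ratio of *Carm1* to *Prmt1* went from -0.60 and -0.92 in NC to -1.36 and -1.43 with MS023 and -1.72 and -1.47 with DZNep, and was between -1.17 and -0.42 in all other compounds' libraries.

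**Figure D4:**
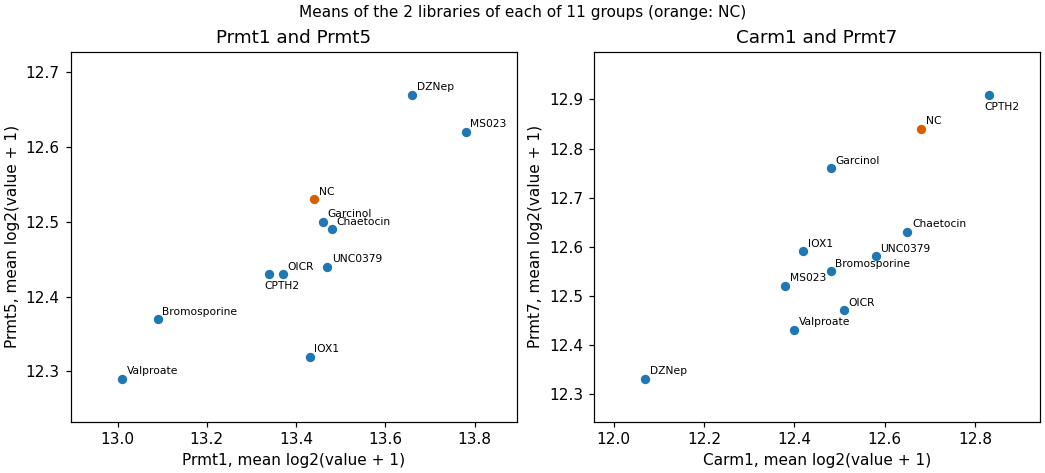
Group means of log2(value + 1), 2 libraries a group, for *Prmt1* against *Prmt5* (left) and *Carm1* against *Prmt7* (right); NC is orange. *Prmt1* and *Prmt5* run from Valproate to DZNep and MS023 (r 0.842, 11 groups), and *Carm1* and *Prmt7* run from DZNep to CPTH2 (r 0.834).

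Among 12870 genes with a mean of at least 100, the gene most like each member over the 11 group means was *Tpx2* for *Prmt1* (r 0.954), *Rnf44* for *Prmt2* (0.949), *Aurkaip1* for *Prmt3* (0.911), *Tkt* for *Carm1* (0.967), *Ube2l3* for *Prmt5* (0.938), *Slc25a26* for *Prmt6* (0.983), *Isoc2a* for *Prmt7* (0.947) and *Pramef17* for *Wdr77* (0.941). The next were *Ufc1* and *Apom* for *Prmt1*, *Zscan20* and *Fam53c* for *Prmt2*, *Dus2* and *Cmtr2* for *Prmt3*, *Rgs3* and *Bcl3* for *Carm1*, *Apom* and *Cope* for *Prmt5*, *Mocs3* and *Pik3r3* for *Prmt6*, *Mettl22* and *Osgepl1* for *Prmt7*, and *Bst1* and *Aaas* for *Wdr77*. *Apom* stood among the 3 nearest of both *Prmt1* and *Prmt5*. With so many candidates and 11 points, high values of r are common, and these names are a description.

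The wider arginine methylation system was read from 37 further genes in 7 lists: other methyltransferases, PRMT5 adaptors, PRMT1 regulators, readers of methylarginine, genes of arginine and methylarginine turnover, type I substrates and PRMT5 substrates. Of 370 gene and compound pairs 4 were called, 2 higher and 2 lower, where 2.15% of all pairs of a tested gene and a compound were called. All 4 were with DZNep or Valproate, which called the most genes of the whole table. With DZNep 3 of 37 were called and 8 of 37 (21.6%) passed on adjusted p, beside 11.4% and 23.6% of all tested genes. With MS023 0 of 37 were called in the main fit (limma). There 2 of 37 passed on adjusted p and 4 had an unadjusted p under 0.05, beside 2.21% and 15% of all tested genes. With a replicate block *Padi4*, named after its values were seen, was called with MS023 (log2 change 1.04, adjusted p = 0.0465, limma). It was at 189 and 307 with MS023 and at 66 and 205 in NC, so the groups overlapped.

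*Prmt8*, a type I enzyme attached to the cell membrane and best known from brain, gave both of the falls. It was at 910 and 1038 in NC, at 124 and 254 with DZNep (-2.45, SE 0.66, adjusted p = 0.0165, limma with Benjamini-Hochberg) and at 70 and 151 with Valproate (-3.23, SE 0.66, adjusted p = 0.00758). Bromosporine (155 and 255, adjusted p = 0.0658) and OICR (174 and 345, adjusted p = 0.251) were also low without passing in the main fit. With a replicate block *Prmt8* was called with both (adjusted p = 6.2e-05 with Bromosporine and 0.00107 with OICR, limma). With MS023 *Prmt8* was at 428 and 778 (-0.75, adjusted p = 0.677), below both NC libraries, as with 8 of 10 compounds in all. Of tested genes 2.73% were below both with at least 8 compounds, and all comparisons share the same 2 NC libraries. Replicate 2 was above replicate 1 in all 11 groups by a median of 0.98 on the log2 scale. The DZNep call was lost without DZNep replicate 1 (adjusted p = 0.119) or without either NC library (0.0743 and 0.0727), and the Valproate call without Valproate replicate 1 (0.0795) or NC replicate 2 (0.0512). The gene lies on chromosome 6 (127689011 to 127769472, minus strand, mm10), and *Prmt9*, the other type II enzyme beside *Prmt5*, had no call with any compound.

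**Figure D5:**
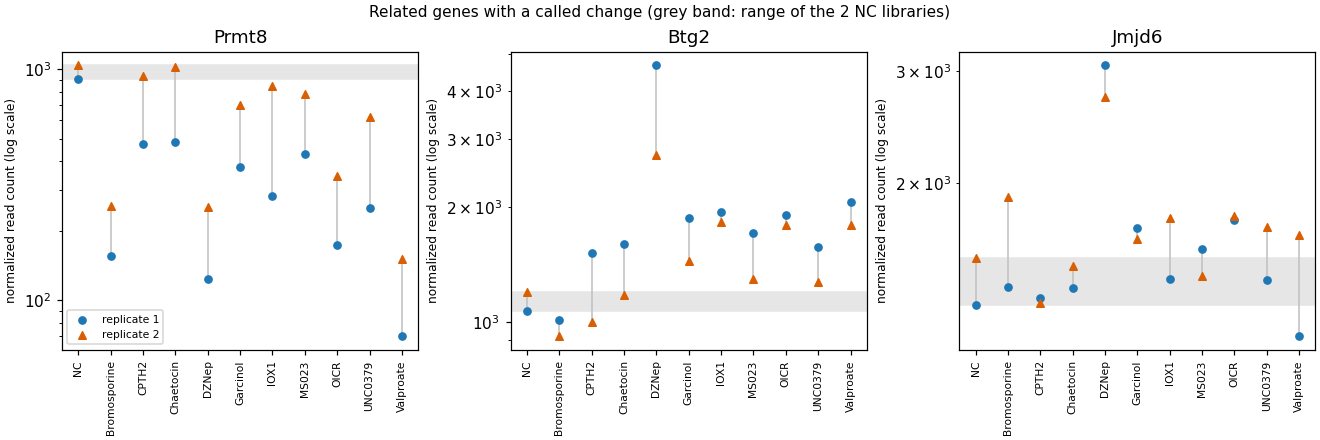
Normalized read counts on log axes for the 3 related genes with a call, in each of 22 libraries by group; circles are replicate 1, triangles replicate 2 and the grey band spans the NC libraries. *Prmt8* is lowest with Valproate (70 and 151), and *Btg2* and *Jmjd6* are highest with DZNep.

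*Btg2*, whose protein binds PRMT1 and raises its activity, rose with DZNep from 1072 and 1199 to 4661 and 2732 (1.65, SE 0.26, adjusted p = 5.22e-04, limma). It was also higher with DZNep than with MS023 (1.26, SE 0.26, adjusted p = 0.00338), where MS023 gave 1709 and 1293. *Btg1*, its close relative, and *Chtop* were not called with any compound. *Jmjd6*, a hydroxylase also proposed to remove methyl groups from arginine, rose with DZNep from 1287 and 1526 to 3060 and 2727 (1.04, SE 0.18, adjusted p = 0.00132), just over 2-fold. Leaving out DZNep replicate 1 (0.96) or NC replicate 1 (0.92) brought it just under 2-fold, with adjusted p still under 0.05.

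In the lists with no call, the largest change was in each case with DZNep or IOX1. *Coprs*, which brings PRMT5 to histones, rose from 1100 and 1297 to 1952 and 1860 with DZNep (0.67, SE 0.12, adjusted p = 0.00160, limma). *Snrpd3*, a spliceosomal protein that PRMT5 methylates, rose from 4857 and 6606 to 9073 and 10116 (0.76, SE 0.19, adjusted p = 0.0115). The 5 PRMT5 substrates had a median change of 0.57 with DZNep and -0.13 with MS023, against -0.04 and -0.01 over all tested genes. With DZNep 2 of the 5 passed on adjusted p, where 23.6% of all tested genes did. The median was also 0.39 with IOX1, 0.26 with UNC0379 and 0.25 with Bromosporine, and between 0.08 (CPTH2) and 0.16 (Chaetocin) with the rest. NC was the lowest group for *Snrpd3* and *Lsm4*, so a rise of these substrates was not particular to DZNep. Among the readers, *Smndc1* went from 3453 and 4354 to 5658 and 8842 with DZNep (0.87, SE 0.37, adjusted p = 0.108). *Tdrd3*, the reader that passed on adjusted p and is named after its values were seen, fell from 486 and 482 to 310 and 316 with DZNep (-0.63, SE 0.16, adjusted p = 0.0130) and to 250 and 299 with Valproate (-0.82, SE 0.16, adjusted p = 0.00618). *Tdrd3* was below both NC libraries with 9 of 10 compounds, as 0.828% of tested genes were with at least 9. *Ncl*, a type I substrate, was at 36708 and 30913 in NC and 76216 and 59584 with IOX1 (1.00, SE 0.51, adjusted p = 0.449). *Pabpc1* and *Rps2* reached the largest value of the table in some libraries.

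The 2 related genes that passed on adjusted p with MS023 in the main fit are named here after their values were seen. *Pabpn1*, a nuclear poly(A)-binding protein that PRMT1 methylates, rose from 6428 and 6377 to 10033 and 10193 (0.66, SE 0.11, adjusted p = 0.00884, limma), the highest values of any group. *Mtap*, which clears methylthioadenosine, an inhibitor of PRMT5, fell from 2316 and 2121 to 1506 and 1558 (-0.53, SE 0.12, adjusted p = 0.0418), the lowest group. Both changes were below 2-fold, and the libraries of MS023 did not overlap with those of NC. With DZNep neither passed: *Pabpn1* was at 7978 and 6176 and *Mtap* at 2336 and 1975.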

How the data were processed

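Poly(A)-enriched RNA was sequenced from 22 libraries of 11 groups, grouped by the titles and treatment labels. The deposited values are scores: read counts that the authors normalized with EDASeq at its full setting and rounded. The submitters' notes name bcl2fastq, Bowtie2 2.2.5, RSEM and mm10; the counting route and its use of strand are not stated in the sources used here. No compound appears in the published methods, which were taken to apply to these libraries. Since the values are not raw counts, log2(value + 1) was fitted with limma 3.58.1 (R 4.3.3) over 11 group means, with a trended variance, on genes with at least 10 in at least 2 libraries. P-values were adjusted by Benjamini-Hochberg over all tested genes of a comparison. A call needed an adjusted p under 0.05 and a change over 2-fold. The table of the authors' group means was not used. Scripts were tested on simulated data. Gene positions and overlaps came from GENCODE on mm10.

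The members and gene lists were chosen with earlier results of these data known. All members were described, with full statistics for MS023, for adjusted p under 0.05 and for the highest and lowest change of each member; of related genes, those called were named and otherwise the largest change of a list. The 3 genes with the highest Pearson r over group means were named for each member. Alternatives were a pseudocount of 10, no filter, median-ratio rescaling, the mean of the other 10 groups as reference, only the 2 groups compared, a replicate block and leaving out each library.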

Additional observations from a re-analysis of the deposited data

How the results depend on the processing

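No member and compound pair was called under a pseudocount of 10, no filter, median-ratio rescaling (factors 0.971 to 1.04), the mean of the other 10 groups as reference, a fit of only the 2 groups compared, or any library left out (0 to 0). The members that varied over the groups numbered 2 to 3 with a library left out. A replicate block gave 2 called pairs, *Prmt2* with Bromosporine (adjusted p = 0.00942, limma) and with Valproate (0.00807), and 6 members and 11378 genes that varied in place of 2 and 5136. Same-numbered libraries deviated together with a positive correlation in every pair of groups, above 0.1 in 51 of 55 (lowest 0.0535, median 0.196). Replicate 2 stood above replicate 1 in all 11 groups for 12.3% of tested genes, and below it in all 11 for 8.75%. The numbers were not taken as pairs in the main fit, because the correlation did not exceed 0.1 in every pair. That fit counts the shared difference as spread, so which pairs pass depends on this choice. With the block 12 of 80 member pairs passed on adjusted p alone, in place of 3, and DZNep against MS023 passed for 2 of 8 members in place of 0, *Carm1* (0.0157) and *Prmt6* (0.00239). The 9 added pairs were *Prmt1* with Valproate (0.00215), Bromosporine (0.0111), MS023 (0.0208) and DZNep (0.0431), *Prmt2* with Bromosporine, Valproate and DZNep (0.0401), *Carm1* with Valproate (0.0346) and *Prmt6* with DZNep (2.44e-04). The share of all tested genes that passed on adjusted p with the block was not counted. Since the block also raised the number of genes that varied over the whole table, these added passes are not a result particular to the members.

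The 4 called pairs of related genes became 9 with the block, 0 with only the 2 groups compared, and 2 to 4 with a library left out. The pairs added by the block were *Prmt8* with Bromosporine (adjusted p = 6.2e-05, limma) and OICR (0.00107), *Padi2* with Bromosporine (0.00789) and OICR (0.0172), and *Padi4* with MS023 (0.0465). *Padi2* fell in both of its pairs and *Padi4* rose. For *Prmt8* with DZNep the change was -1.2 (adjusted p = 0.0769) against the other 10 groups, and with only the 2 groups compared adjusted p was 0.0941 for *Prmt8* with DZNep, 0.143 with Valproate, 0.102 for *Btg2* and 0.0835 for *Jmjd6* with DZNep. The cause of these differences was not tested, apart from the fewer libraries in the last fit.

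Small changes turned direction when a library was left out. The range was -0.49 to 0.33 for *Prmt2* with Chaetocin, -0.091 to 0.27 for *Prmt5* with MS023, -0.040 to 0.32 for *Prmt5* with DZNep, -0.067 to 0.49 for *Prmt6* with MS023, -0.55 to 0.0068 for *Prmt6* with Bromosporine, and -0.18 to 0.14 for *Wdr77* with MS023, which was also 0.014 against the other 10 groups.

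Counts over the whole table moved more. With the block they were 1189 for Bromosporine, 1487 for Valproate, 484 for MS023, 274 for OICR, 217 for IOX1, 35 for Chaetocin and 11 for UNC0379, in place of 577, 912, 168, 67, 20, 3 and 0. With only the 2 groups compared, DZNep against MS023 had 314 (1891), DZNep against NC 97 (1970), Bromosporine 128, Valproate 75 and MS023 67. Against the other 10 groups, Bromosporine had 889, MS023 449 and IOX1 72. Without NC replicate 1, DZNep had 1187, Valproate 514, Bromosporine 218 and MS023 28. Of the 24 genes named as most like a member, 9 were also named with 22 libraries centred by replicate number. Depth is unknown and limits *Prmt2*, the lowest member, in a way that could not be measured.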
